A study of Mus musculus with 35 samples.

Results

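The genes described here are the chemokine receptor Cxcr4, the integrin subunits Itga4, Itga6, Itgb1, Itgb7, Itgal and Itgb2, and the selectin ligand gene Selplg, 8 genes that hold or home blood cells in the bone marrow. They were chosen by their symbols in the array's annotation table, which gave 12 probe sets out of the 12422 on the array that are not controls. Blood stem cells are kept in the marrow by the chemokine CXCL12, which marrow stromal cells make and which signals through the receptor CXCR4. Integrins are pairs of an alpha and a beta chain, so that Itga4 with Itgb1 makes VLA-4, the receptor for VCAM-1 and fibronectin, Itga4 with Itgb7 makes the gut homing receptor for MAdCAM-1, Itga6 with Itgb1 makes a laminin receptor, and Itgal with Itgb2 makes LFA-1, the receptor for ICAMs on lymphocytes. Selplg codes for PSGL-1, the selectin ligand on which leukocytes roll along vessel walls.

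The study amplified mRNA from very few mouse bone marrow cells by a PCR of the part of each transcript next to the poly-A tail and hybridised the products to 35 short-oligonucleotide arrays (MG-U74Av2). The cells came from C57Bl/6 mice (CD45.1, 7 to 9 weeks of age), with the marrow of 1 mouse collected for an experiment, per the methods. The labels call the mice male for LSP, CD8 and single cells and leave the sex out for USP. The side population (SP) holds cells that efflux the Hoechst dye and is rich in stem cells, and its cells were gated for Sca-1 and against Gr-1.

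Lower SP (LSP) cells came from the lower part of the SP tail (samples A, B and M), upper SP (USP) cells from its upper part (samples N, O and Z), and CD8 cells were CD3 and CD8 positive T lymphocytes of the marrow (samples B, C and D). Each of these 9 samples was a pool of amplifications of 10 cells and was hybridised to 2 arrays. A second experiment took 12 single SP cells (A to L) from the tip of the tail and 5 single-cell equivalents (SCE, A to E), which are aliquots of 1 lysate of 40 SP cells, so that the SCE differ from each other by technical error alone. Values are log2 intensities. In the 10-cell samples they were set to at least 7 (an intensity of 128), called the floor below, and the 2 arrays of a sample were averaged. Nothing in the labels says that the samples of a population came from separate animals, so the p-values measure the spread between these samples, which may be technical.

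Defining markers went with the labels. All 8 tested genes of a T cell list were higher in CD8, and 7 of 8 tested genes of an SP and stem cell list were higher in SP. Between 1737 and 2321 probe sets per array reached a log2 intensity of 9 in the 10-cell samples, and between 1194 and 1563 did in the single cells and SCE. Of the 12 SP arrays, 9 held negative values (24.6% to 32.1% of their probe sets) and 3 did not, namely array 2 of LSP B and both arrays of USP Z, while none of the CD8 arrays held any, so the kind of deposited value goes partly with the population in SP against CD8.

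Sequence before a transcript start is shown for Cxcr4 and Itgb7, the members with a RefSeq promoter entry (4 of the 8 genes had one) that were called in opposite directions between SP and CD8. Each line gives the 250 bases before the start of the transcript that the RefSeq table lists, in build GRCm38.p6, read 5′ to 3′ on the gene's strand. The Cxcr4 stretch ends at the gene's 5′ edge, while the Itgb7 stretch lies inside the annotated span of the gene, before a start that is not its outermost. Capitals mark matches to 5 motifs searched on both strands, and overlapping matches run together. The GC box was searched as GGGCGG. For factors of the PU.1 type the letters were GAGGAA. For RUNX factors, which bind in blood cells, they were TGTGGT. The TATA box was searched as TATAAA, and the NRF1 motif is given by its name.
Cxcr4, chr1:128592300-128592549, minus strand: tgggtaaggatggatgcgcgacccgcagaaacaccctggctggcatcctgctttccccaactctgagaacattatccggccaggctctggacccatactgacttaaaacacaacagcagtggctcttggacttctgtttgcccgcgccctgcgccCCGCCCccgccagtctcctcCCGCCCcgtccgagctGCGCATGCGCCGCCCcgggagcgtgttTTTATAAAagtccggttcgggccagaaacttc
Itgb7, chr15:102231936-102232185, minus strand: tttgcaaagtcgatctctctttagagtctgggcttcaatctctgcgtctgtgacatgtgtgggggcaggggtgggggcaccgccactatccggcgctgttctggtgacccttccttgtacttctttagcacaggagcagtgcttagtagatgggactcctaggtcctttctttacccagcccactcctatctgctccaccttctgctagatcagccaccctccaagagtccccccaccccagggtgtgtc

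The Cxcr4 stretch held 3 matches to the GC box, 1 to the NRF1 motif and 2 overlapping matches to the TATA box. Of 32851 promoter stretches of the same length, 32.7% held a GC box, 0.782% the NRF1 motif and 12.4% a TATA box. The Itgb7 stretch held none of the 5 motifs, of which the PU.1 and RUNX letters occur in 23.3% and 14.0% of all stretches. The G and C content was 61.2% in the Cxcr4 stretch and 56% in the Itgb7 stretch, against a median of 52.4%. These matches describe the letters in the window only. Cxcr4 lies at chr1:128588199-128592299, Itga4 at chr2:79255426-79333114, Itga6 at chr2:71786886-71858427, Itgb1 at chr8:128685654-128733579, Itgb7 at chr15:102215994-102233405, Itgal at chr7:127296139-127335137, Itgb2 at chr10:77530329-77565708 and Selplg at chr5:113817798-113832528 of GRCm38.p6, and where each probe lies within its gene was not analysed here.

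The first comparison asked how the stem cell fraction differed from a mature lymphocyte of the same marrow. Cxcr4 was 4.25-fold higher in SP than in CD8 cells, whereas Itgb7, Itgb2 and Selplg were 11.7-fold (the larger of its 2 probe sets), 3.68-fold and 4.87-fold higher in CD8. Of the 12 probe sets, 9 rose above the floor on at least 1 array and were tested (54.9% of all probe sets were), and the 3 probe sets of Itga4 stayed at the floor on all 18 arrays. In the limma test across 6823 probe sets, 1 of the 9 rose in SP and 4 rose in CD8 (adjusted p under 0.05), where 2.83% and 3.0% of all probe sets tested were called in these directions. The median difference of the 9 was -0.94 on the log2 scale (SP minus CD8), against 0.04 over all probe sets tested. Without CD8 sample C none of these 5 calls was kept (adjusted p 0.060 to 0.154) and Itgal was called instead. In that fit Itgal was at the floor in all SP samples, so CD8 B and D were its only source of spread. Levels under the floor are not resolved, which shrinks a difference where the floored samples are in the lower group. It can enlarge a difference where some are in the higher group, as for Itga6 (-0.036 with a floor of 6 and 0.41 with a floor of 8). Itgal and the Itgb1 probe set 100124_r_at also had floored samples in the higher group, but their differences were smaller with the higher floor. With floors of 6 and 8 they were -1.61 and -0.27 for Itgal and 1.39 and 0.10 for 100124_r_at. In pooled cells, fewer cells that express a gene and less RNA per cell cannot be told apart.

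Cxcr4 (probe set 102794_at) was the one member higher in SP. Its log2 levels were 10.70, 11.13 and 12.08 in LSP A, B and M, 11.06, 10.50 and 10.90 in USP N, O and Z, and 9.21, 8.52 and 9.18 in CD8 B, C and D. All 6 SP samples lay above all 3 CD8 samples, which was so for 5.53% of the probe sets tested, and Cxcr4 was the only member with this order. The mean was 11.06 ± 0.55 in SP (SD, n = 6), against 8.97 ± 0.39 for CD8 cells (SD, n = 3), and limma gave a difference of 2.09 (SE 0.33, 95% interval 1.30 to 2.88, adjusted p = 0.0147). Cxcr4 was above the floor on each of the 18 arrays, and the 2 arrays of a sample differed by at most 0.41. The adjusted p lay between 0.00193 and 0.060 over 18 alternatives and exceeded 0.05 without CD8 sample C (0.060) and on the arrays with positive values alone (0.0543, difference 2.01). The positive SP arrays are 1 sample of LSP and 1 of USP, so the spread in that fit comes from the CD8 samples and holds none between SP samples.

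**Figure D1:**
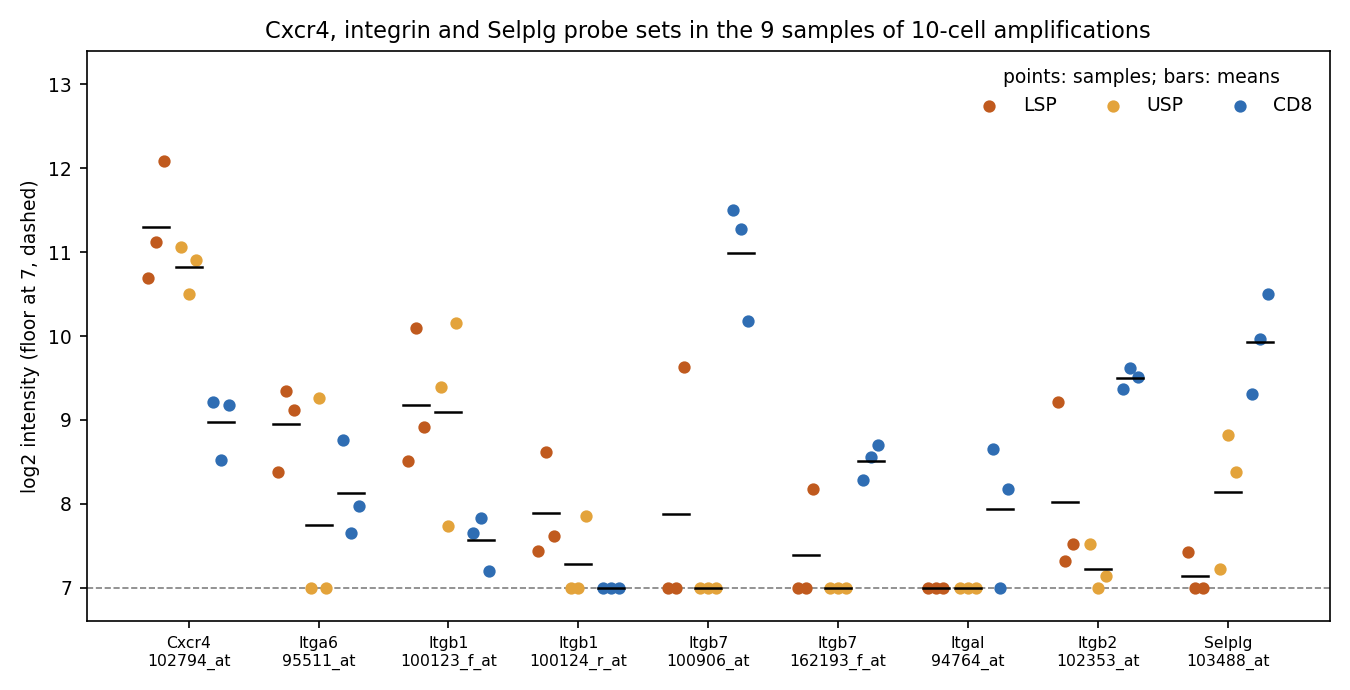
Log2 intensity of the 9 tested probe sets (x axis) by population (3 samples of LSP, 3 of USP, 3 of CD8), with a point for the mean of the 2 arrays of a sample, each bar a group mean, with the floor at 7 dashed. Cxcr4 is higher in all SP samples (10.50 to 12.08) than in CD8 (8.52 to 9.21), and Itgb7, Itgb2 and Selplg are higher in all CD8 samples, with LSP M alone raised among the SP samples for Itgb7.

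Itgb7, the beta chain of the gut homing integrins, showed the largest difference of the set. On probe set 100906_at the levels were 11.50, 11.27 and 10.18 in CD8 B, C and D and 9.63 in LSP M, and the 5 other SP samples were at the floor. The groups did not overlap, an order that all 4 called CD8 probe sets showed and that 5.77% of the probe sets tested shared. The difference was -3.55 (SE 0.64, adjusted p = 0.0236, limma), and leaving out LSP M made it -3.99 with an adjusted p of 0.00111. In that fit every SP sample was at the floor, so the spread came from the CD8 samples alone. Over all alternatives the adjusted p lay between 0.000437 and 0.0947, and it missed 0.05 without CD8 B, without CD8 C, without USP N, without USP O, and with no filter on low levels.

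The other Itgb7 probe set, 162193_f_at, has the suffix of probe sets that share probes with similar sequences. It gave 8.28, 8.56 and 8.71 in CD8 and 8.18 in LSP M, again with 5 SP samples at the floor. The CD8 samples were above LSP M by little, and the difference was -1.32 (SE 0.28, adjusted p = 0.0417). That call was lost in 15 of 18 alternatives (adjusted p 0.00151 to 0.154), all with the same direction. The lowest of these was without LSP M, again with no spread between SP samples.

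LSP M was thus the SP sample in which both Itgb7 probe sets appeared, at intensities of 583 and 1070 on its 2 arrays for 100906_at and of 358 and 235 for 162193_f_at. No other SP array exceeded 95.3 for the former or 20.9 for the latter. Of 9 T cell markers with a probe set, 2 were above the floor in LSP M, Cd3e (log2 level 8.59) and Cd2 (7.33), and their summed intensity was 493, while the sum was 0 in each of the other SP samples and 26325 to 28832 in the CD8 samples. Cd3d, Cd3g, Cd6, Cd8a, Cd8b1 and Zap70 were at the floor in all SP samples. The part of this in the Itgb7 level of LSP M was not tested.

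Of the subunits of LFA-1, Itgb2 was called higher in CD8 and Itgal was not called. Itgb2 (102353_at), the beta chain of the leukocyte integrins, had levels of 9.37, 9.62 and 9.51 in CD8, 9.21, 7.32 and 7.53 in LSP A, B and M, and 7.52, 7 and 7.15 in USP N, O and Z. CD8 lay above every SP sample, and LSP A (9.21) came near the lowest CD8 sample (9.37). The difference was -1.88 (SE 0.41, adjusted p = 0.0468) and without LSP A it was -2.18 with an adjusted p of 0.000715, the lowest of the alternatives. The call was lost in 11 of 18 alternatives, 8 of which left out another sample, with adjusted p up to 0.154.

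Itgal (94764_at), the alpha chain of LFA-1, was at the floor in all 6 SP samples. It reached 8.65 in CD8 B and 8.17 in CD8 D and was at the floor in CD8 C, so the groups overlapped there. The difference of -0.94 (SE 0.33) missed the threshold (adjusted p = 0.178). Without CD8 C it was -1.41 with an adjusted p of 0.00412. CD8 B and D were then the only source of spread, so nothing is read from that p. With each sample left out in turn, the adjusted p lay between 0.00412 and 0.441. On the 2 arrays of CD8 C the intensity was 5.30 and 5.70, against 266 to 461 on the arrays of CD8 B and D.

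Selplg (103488_at) was higher in CD8, at 9.31, 9.97 and 10.50 in CD8 B, C and D. In LSP it was at 7.43 in sample A and at the floor in B and M, and in USP it was at 7.22, 8.82 and 8.38 in N, O and Z. The highest SP sample, USP O, lay under the lowest CD8 sample, and the difference was -2.29 (SE 0.40, adjusted p = 0.0221). The call was lost in 5 of 18 alternatives, without CD8 C and without CD8 D among them (adjusted p 0.0809 and 0.0851), with values from -2.59 to -1.73.

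The subunits of the laminin receptor had no called difference. Itgb1 on probe set 100123_f_at was at 8.51, 10.10 and 8.92 in LSP A, B and M, at 9.39, 7.74 and 10.16 in USP N, O and Z, and at 7.66, 7.84 and 7.20 in CD8. USP O lay within the range of CD8 and the other 5 SP samples lay above it. The difference of 1.57 (SE 0.58, 95% interval 0.19 to 2.95) had an adjusted p of 0.204.

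The highest Itgb1 levels were those of LSP B and USP Z, the samples that hold the 3 SP arrays with positive values alone. In the comparison limited to positive arrays the difference was 2.61, with 1 sample each of LSP and USP and so no spread between SP samples. The other Itgb1 probe set, 100124_r_at, was at the floor in all CD8 samples and in USP N and O and at 7.44 to 8.62 in the other SP samples. Its difference of 0.59 (SE 0.31, adjusted p = 0.407) was 1.29 on the positive arrays, where the CD8 samples, all at the floor, were the only source of spread. The part of the kind of values in the Itgb1 levels was not tested.

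Itga6 (95511_at), the alpha chain of laminin receptors and a marker of stem cells, was split within USP. Its levels were 8.38, 9.35 and 9.11 in LSP A, B and M, the floor in USP N and Z, 9.26 in USP O, and 8.76, 7.66 and 7.97 in CD8 B, C and D. SP and CD8 overlapped and differed by 0.22 (SE 0.58, 95% interval -1.14 to 1.59, adjusted p = 0.864). Its sign turned in 4 of 18 alternatives. The highest intensity of any Itga4 probe set on a 10-cell array was 123, on array 1 of CD8 B, under the floor, so no level can be given for the alpha chain of VLA-4 in these pools.

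**Figure D2:**
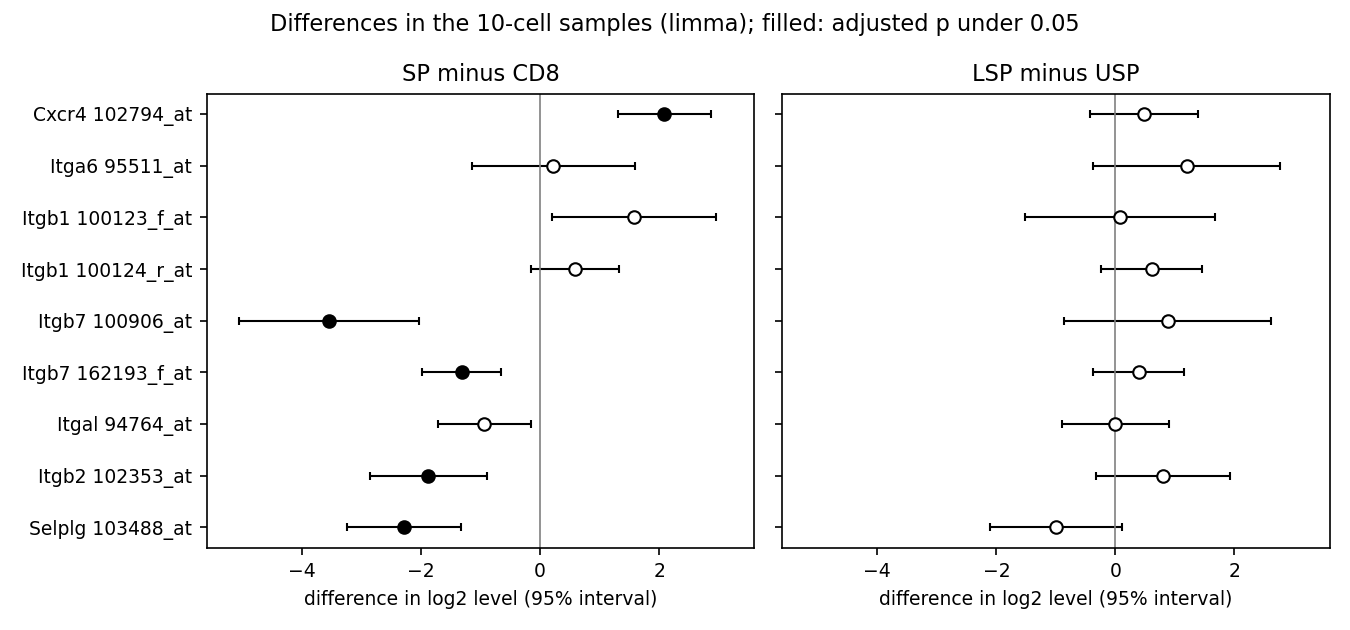
Difference in log2 level with its 95% interval for SP minus CD8 (left) and LSP minus USP (right) on a shared axis, 9 probe sets on the y axis, filled points marking an adjusted p under 0.05 in limma. On the left 1 filled point lies above 0 (Cxcr4, 2.09) and 4 lie below (-3.55 to -1.32), and on the right no point is filled.

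The second comparison asked whether the lower and upper parts of the SP tail differed. None of the 9 probe sets was called (0.103% of all probe sets were, 7 of 6823), and none of the 9 had an unadjusted p under 0.05 (409 of all did). By the methods' t-test the 9 gave no adjusted call either. Differences with an interval were 0.48 for Cxcr4 (LSP minus USP, 95% interval -0.43 to 1.39), 1.19 for Itga6 (-0.38 to 2.77), 0.80 for Itgb2 (-0.33 to 1.93), 0.08 and 0.61 for the Itgb1 probe sets and -1.0 for Selplg (-2.10 to 0.11). These intervals hold changes of more than 2-fold for Cxcr4 and of more than 4-fold for Itga6 and Selplg, so they do not show that the members are alike in LSP and USP.

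Selplg had the lowest adjusted p of the members (0.869), and the lowest over the alternatives were 0.255 for Itga6 without USP O and 0.271 for Selplg in the array-level fit with duplicateCorrelation. The means of the members were higher in LSP for 7 probe sets and in USP for Selplg alone, while Itgal was at the floor in both. For Itgb7 the difference of 0.88 rested on LSP M, and without it both probe sets were at the floor in every LSP and USP sample. The Cxcr4 difference also rested largely on LSP M, its highest sample (12.08), and was 0.09 without it.

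The third comparison asked how single cells vary beyond technical error, which the SCE measure. A probe set was called detected at a log2 intensity of at least 9 (intensity 512). At that level 5 of the 12 probe sets were detected in at least 1 single cell, of Cxcr4, Itga4, Itga6, Itgb1 and Selplg, as were 33.9% of all probe sets. Itgb7, Itgal and Itgb2 were not detected in any of the 12 cells or 5 SCE.

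Cxcr4 was detected in 5 of 12 single cells and in all 5 SCE. The 5 cells were C (11.86), D (11.35), B (10.16), E (9.55) and J (9.22), and the other cells ranged from 4.39 in cell H to 8.60 in cell I. The median over the cells was 8.34. The SCE were at 9.59, 9.60, 10.16, 10.77 and 9.51, a range of little more than 1 log2 unit against more than 7 in the cells. No floor was set here, and cells A, G, H, K and L lay under 7, the floor of the 10-cell samples. Such low levels widen the range of the cells and enter the main spread test and the variance share. The difference in mean absolute deviation (single cells minus SCE) was 1.79, and 1.11 to 1.99 over the alternatives. The mean intensity was 810 over the cells and 1031 over the SCE, and cell C held 38.3% of the summed intensity of the 12 cells.

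The exact 1-sided permutation test of the spread gave p = 0.0176 for Cxcr4 (6188 splits), and 0.467 after adjustment over the 4215 probe sets detected in a cell. The p was under 0.05 for 9.25% of these, and the adjusted p for none. The unadjusted p stayed between 0.00824 and 0.0390 for Cxcr4 in 20 alternatives, which included leaving out each cell and each SCE. The maximum likelihood estimate of the share of variance between cells that the SCE do not show was 0.974, against a median of 0.355 over all, and 41.6% of probe sets had a share of at least 0.5. Among the 441 probe sets detected in all SCE, 30 (6.80%) were detected in only 1 to 5 of the cells. These bounds were set at the counts of Cxcr4 itself, so its place among the 30 is no result. At a log2 level of 8 Cxcr4 was detected in 7 of 12 cells and all 5 SCE. At 10 it was detected in 3 of 12 cells and 2 of 5 SCE, so the contrast of cells with SCE in detection depended on the level.

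**Figure D3:**
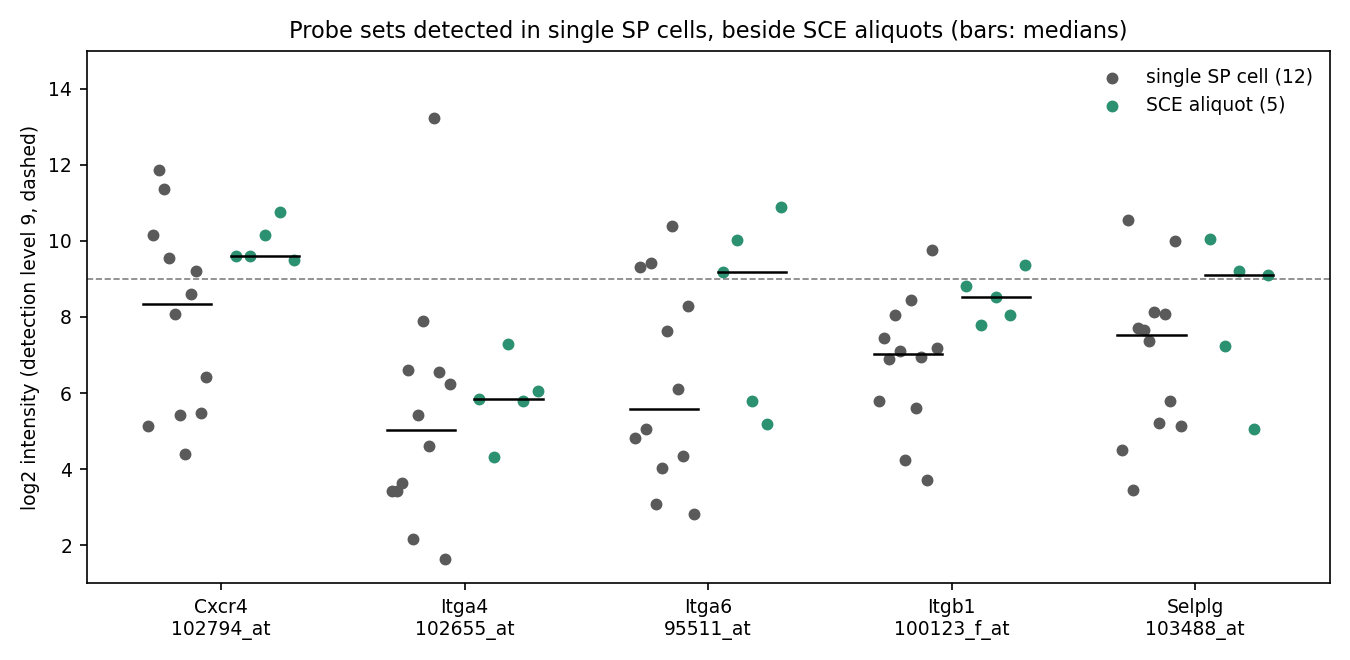
Log2 intensity of the 5 probe sets detected in a single cell (x axis), with 12 single SP cells in grey and 5 SCE in green, bars marking medians and the dashed line the detection level of 9. The Cxcr4 cells span 4.39 to 11.86 while the SCE stay between 9.51 and 10.77, and for Itga6 and Selplg the SCE spread as widely as many of the cells.

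Itga4 was seen in a single cell. Probe set 102655_at was at 13.24 in cell I, and the other 11 cells ranged from 1.63 to 7.89. Cell I held 94.0% of the summed intensity, and the SCE were at 5.84, 4.31, 7.29, 5.78 and 6.06, all under detection. The other Itga4 probe sets were not detected in cell I, at 7.30 for 102656_at and 3.68 for 95292_at. The probe set entered the spread test through cell I alone, the group whose spread is tested, so no p is given for it.

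Itga6 was detected in cells H (10.39), D (9.42) and B (9.32), with a median of 5.58 over the 12 cells. The SCE were at 9.19, 10.02, 5.80, 5.17 and 10.89, so that 3 of 5 aliquots of the same lysate detected it and 2 were as low as the undetected cells. The estimated share of variance between cells was 0, and the spread test gave p = 0.576 (exact permutation). The mean intensity was 280 in the cells and 721 in the SCE.

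Itgb1 on 100123_f_at was detected in cell K (9.77), and the cells had a lowest level of 3.70 and a median of 7.04. The SCE were at 8.82, 7.78, 8.54, 8.06 and 9.37, within the upper part of the range of the cells, and 1 was detected. The probe set entered the spread test through cell K alone, the group whose spread is tested, so no p is given for it. The estimated share of 0.919 has the same limit. Probe set 100124_r_at was detected in no cell and no SCE, and was at 6.44 in cell K. Each Itgb1 detection thus came from 100123_f_at, which has the suffix of probe sets that share probes with similar sequences.

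Selplg was detected in cells B (10.54) and K (10.00), with a lowest level of 3.46 and a median of 7.52. The SCE were at 10.04, 7.24, 9.22, 5.06 and 9.09, and 3 of 5 were detected, so its aliquots also differed widely. The share was 0.148 and the spread test gave p = 0.411 (exact permutation).

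The undetected members were low in cells and SCE alike. Itgal ranged from 3.35 to 5.46 in the cells and from 3.63 to 5.17 in the SCE, and Itgb2 from 4.54 to 8.05 and from 3.82 to 8.82. Itgb7 on 100906_at ranged from 6.5 to 8.84 in the cells and from 6.38 to 8.89 in the SCE, and 162193_f_at reached at most 7.56 on any of the 17 arrays. At a lower level of 8, Itgb7 was reached in 4 cells and 3 SCE. None of these ranges separated cells from SCE.

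In level, each of the 5 tested members had a lower mean log2 level in single cells than in SCE. None was called (0.0429% of 4659 probe sets were, 2 in number). On mean intensity Itga4 went the other way, at 859 in the cells and 71.0 in the SCE, with 94.0% of the former in cell I. The other tested members were lower in the cells on mean intensity too. The differences (single cells minus SCE) were -1.95 (SE 1.12, 95% interval -4.29 to 0.39, adjusted p = 0.864) for Cxcr4 and -1.75 (SE 0.82, adjusted p = 0.864) for Itgb1. They were -1.94 for Itga6, -1.17 for Selplg and -0.45 for Itga4, and the median over all probe sets was -0.09. At an unadjusted p under 0.05, 1 of the 5 (Itgb1) and 265 of all probe sets were called. The 5 SCE share 1 lysate, so they are a single source of cells in this comparison.

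Few cells had more than 1 member at detection. Of the 12 cells, 4 (A, F, G and L) had none of the 8 genes, and 5 had 1 gene (Cxcr4 in C, E and J, Itga6 in H, Itga4 in I). Cell D had Cxcr4 and Itga6, cell K had Itgb1 and Selplg, and cell B had Cxcr4, Itga6 and Selplg. No cell had both chains of an integrin at detection. The 3 cells with Itga6 and the cell with Itga4 had Itgb1 under 9, and the cell with Itgb1 had both alpha chains under 9. Every SCE had Cxcr4, and SCE E alone had an integrin pair (Itga6 with Itgb1). This depended on the level used. At a level of 8, cell D (Itga6 9.42, Itgb1 8.06) and cell K (8.29 and 9.77) held that pair, as did SCE A (9.19 and 8.82) and SCE E.

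Cells A, F, G and L, with none of the genes, had 1199 to 1398 detected probe sets, within the 1194 to 1489 of the others. Over the 12 cells Pearson's r of Cxcr4 was 0.05 with Itga4, -0.12 with Itga6, -0.05 with Itgb1 and 0.04 with Selplg. The highest r between members was 0.51, of Itgb1 with Selplg, given as a description of 12 arrays.

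**Figure D4:**
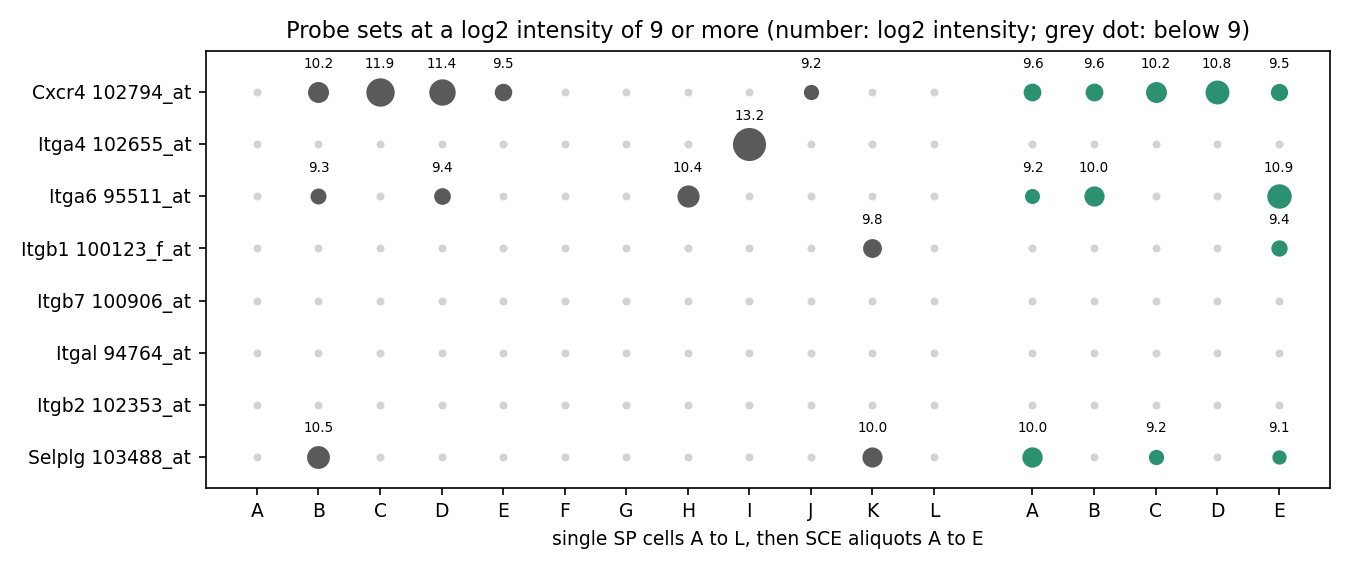
Detection of the 8 genes (y axis, the probe set with the highest value in a single cell) in the 12 single SP cells and the 5 SCE (x axis), with a dot sized by level and its log2 intensity where it reached 9 and a small grey dot where it did not. Cxcr4 fills 5 of 12 cells and 5 of 5 SCE, Itga4 stands in cell I alone (13.2), and the rows of Itgb7, Itgal and Itgb2 are empty.

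The probe sets most like Cxcr4 over the 12 single cells, among 1407 detected in at least 4 cells and assigned to 1 gene, were Api5, an inhibitor of apoptosis (Pearson's r 0.84), Ssna1 (0.82), Mcfd2, a cargo receptor of the secretory pathway (0.80), Rab7, a small GTPase of late endosomes (0.76), and Utp14a, of ribosome assembly (0.74). Over the 9 samples of 10 cells, among 6118 probe sets, they were Atp5e, a subunit of ATP synthase (0.98), Nedd4, a ubiquitin ligase (0.96), Ak4 (0.95), Thrap3 (0.95) and Kansl2 (0.95), points that share the split between SP and CD8. For Itgal the probe sets of Ntsr1, Fmnl1, Nkiras2, Acad9 and Fasl had r between 0.996 and 1, since they too were raised in CD8 B and D alone of the 9 samples. No gene stood in both lists for Cxcr4.

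Of 26 genes of the chemokine axis, 20 were tested, 1 was higher in SP, 1 was higher in CD8 and 18 were not called, with a median difference of -0.08. In these lists each count stands beside the 2.83% and 3.0% of all probe sets called higher in SP and in CD8. It also stands beside the median of 0.04 over all, and nothing is read from a single call in a list. A fold given as at least marks a gene at the floor in every sample of the lower group. In such a fit the spread came from the other group alone, so the adjusted p measures none in the floored group. Gnai3, an inhibitory G protein alpha subunit, was 4.45-fold higher in SP (9.02 to 9.99, against 7.03 to 8.04 in CD8, adjusted p = 0.00945, and 0.0677 on positive arrays alone). Rac1, a GTPase of cell movement, was 1.74-fold higher in CD8 (11.77 to 11.87, against 10.81 to 11.32 in SP, adjusted p = 0.0140) and was detected in all 12 single cells. Its call was lost in 6 of 18 alternatives, among them without any of the 3 CD8 samples in turn (adjusted p up to 0.0882). For Cxcl12 itself the SP samples ranged from 7 to 8.79 and the CD8 samples from 7 to 9.71, and the difference was -0.57 (adjusted p = 0.736).

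Among 18 other chemoattractant receptors, 10 of the 16 with a probe set were at the floor throughout, and 2 of the 6 tested were higher in CD8. Cxcr3, a receptor of effector T cells, was at the floor in SP and at 9.26 to 9.57 in CD8, at least 5.30-fold higher (adjusted p = 7.56e-06). Ccr7, a lymph node homing receptor, was at least 1.89-fold higher in CD8 (7.40 to 8.35, adjusted p = 0.0421, lost in 13 of 18 alternatives). For Cxcr3 and Ccr7 the spread in the fit came from the CD8 samples alone. No receptor of this list was called higher in SP, and none reached detection in a single cell.

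Of 17 other integrin subunits, 4 were tested and none was called, and 8 were at the floor on every 10-cell array, of which Itga3, named after its values were seen, was detected in 2 single cells and 1 SCE. Of 32 genes of integrin activation, 20 were tested, with 1 called in each direction and a median of 0.14. Cd9, a tetraspanin that binds integrins, was at least 4.74-fold higher in SP (8.36 to 9.96, adjusted p = 0.0161, lost in 5 of 18 alternatives, among them without each CD8 sample in turn, with adjusted p up to 0.110), and Rasgrp2, an activator of Rap1, was 4.98-fold higher in CD8 (9.08 to 9.71, against 7 to 7.89 in SP, adjusted p = 0.00194).

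Of 14 integrin ligands, 7 were tested, 1 was called and the median was 0.01. F11r, the junctional adhesion molecule JAM-A, which LFA-1 binds, was at least 10.8-fold higher in SP (9.65 to 11.02, adjusted p = 0.000928) and was detected in 8 of 12 cells. Of 15 selectins, selectin ligands and glycosylation genes, 9 were tested and 1 was called. Cd24a, a glycoprotein that P-selectin binds, was at 11.56 to 12.64 in SP and at the floor in CD8, at least 30.1-fold higher (adjusted p = 3.47e-05), and was detected in all 12 cells.

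Markers of other marrow cells moved with SP and CD8 as follows. The summed intensity of 8 granulocyte markers was 1090 to 8876 in SP and 0 to 453 in CD8, with S100a8 called higher in SP and Elane and Mpo at the floor on all arrays. The sum of 6 monocyte and macrophage markers was 977 to 3298 in SP and 0 to 1674 in CD8, with Adgre1, Itgam and Mrc1 at the floor. That of 6 B cell markers was 0 to 1656 in SP and 2517 to 11078 in CD8, with Ighm called higher in CD8 and Vpreb1 at the floor. The sum of 2 NK cell markers was 0 in SP and 788 to 972 in CD8, all of it Klrd1. Sums of 4 erythroid, 4 megakaryocyte and 5 endothelial markers were 87.5 to 2488, 0 to 248 and 118 to 579 in SP and 0 to 1896, 0 to 69.3 and 0 to 88.9 in CD8. The part of these cell types in the members' differences was not tested.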

How the data were processed

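The labels and the values show 35 MG-U74Av2 arrays in 1 deposited table of intensities per probe set, on a linear scale and negative in part on 9 arrays. Per the methods the authors collected probe intensities with Microarray Suite and computed log2 levels with RMA, but the deposited intensity values are not on that log scale, and how they were scaled is not given in the sources used here. Control probe sets were left out, and genes were named from the platform table (10833 probe sets with 1 gene symbol, 396 with several). In the 10-cell experiment values were set to at least 128, log2 transformed and averaged over the 2 arrays of a sample. All probe sets above that floor on at least 1 array were fitted in limma 3.58.1 (R 4.3.3), 1 mean per population, with Benjamini-Hochberg adjustment over all of them. Single cells and SCE were analysed without a floor. Their spread was compared by an exact permutation test of mean absolute deviations, their level by limma, and the share of variance between cells was estimated by maximum likelihood. Scripts were tested on simulated data.

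Members, gene lists and tests were chosen with earlier results of these data known. Lists use the probe set with the highest mean level per gene. Genes of the 6 gene lists are named where called in SP against CD8 or LSP against USP (at most 20), where detected in 4 to 11 cells with a spread p under 0.05 (none of these lists were), others as the 5 most like Cxcr4 or Itgal, and markers by at most 3 per list, except where the text counts them. T cell markers named in full beside Itgb7, Cxcl12, Itga3, and cells named by letter were picked after their values were seen. Alternatives were other floors (6 and 8), quantile normalization, other filters, array-level fits, positive arrays alone, the methods' t-test, and leaving out each sample, cell or SCE. The number of arrays limits the precision.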

Additional observations from a re-analysis of the deposited data

Results flagged for a closer look

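In 3 cases a sample lay far from the others of its group. LSP M had log2 levels of 9.63 (100906_at) and 8.18 (162193_f_at) for Itgb7, while the nearest of the other 5 SP samples was at the floor of 7. LSP A had an Itgb2 level of 9.21 against 7.53 in the next SP sample. Chance alone gives such a gap in about 1 of 20 groups (a general property of the rule, not a value of these data), and values at the floor make it easier to meet.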

How the results depend on the processing

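Of the members tested in SP against CD8, 5 were called, and the count was 5 above the floor in at least 3 samples and on positive arrays alone (where both Itgb1 probe sets replaced Cxcr4 and Selplg in a fit with no spread between SP samples), 4 with a floor of 8, quantile normalization or duplicateCorrelation, 3 with a floor of 6, 2 by the methods' t-test after adjustment, 1 with no filter, and 1 to 4 when a sample was left out, the 1 being Itgal, a new call, without CD8 C. The array number, which the labels call a replicate, marks duplicate arrays and pairs nothing across samples (correlation of array 1 minus array 2 between samples, median -0.01 over 36 pairs), and with it as a replicate block 4 were called. Over all probe sets 193 and 205 were higher in SP and CD8, against 1190 and 416 on positive arrays, 95 and 119 with no filter, and 277 and 362 with the block (284 and 377 with duplicateCorrelation), and the SP count was 95 to 102 without a CD8 sample. LSP against USP called 7 of all probe sets, 31 with duplicateCorrelation, 27 with the block, and 0 by the t-test or fitted alone. For the members LSP against USP, level and adjusted spread gave 0 member calls in every alternative. By each estimator 3 members had a variance share of at least 0.5 (Cxcr4, Itga4 and Itgb1). Of these, Itga4 entered through cell I alone and Itgb1 through cell K alone. By maximum likelihood 41.6% of all probe sets detected in a cell had such a share. Detection at 8 in place of 9 raised the detected probe sets from 5 to 8. Signs turned for uncalled values only. Itga6 in SP minus CD8 was -0.036 with a floor of 6, -0.072 on positive arrays and -0.16 to 0.54 without a sample. Itgb1 100123_f_at in LSP minus USP was -0.0078 with a floor of 8 and -0.60 to 0.61 without a sample. With a floor of 7 in the single cells, Itga4 in level became 0.54 and the spread difference -0.54 for Itga6 (-0.23 to 0.77 without an array) and -0.19 for Selplg (-0.021 to 0.99). The cause of these changes was not tested.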
